A study of Mus musculus with 5 samples.

Results

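Pthlh encodes parathyroid hormone-related protein, a secreted ligand, and was followed together with its receptor gene Pth1r and with genes whose products move or bind calcium in epithelial cells. These were the channel genes Trpv6 and Trpv4, the calcium-binding protein genes S100g and Calb1, and the pump genes Atp2b1, Atp2b4, Atp2a2 and Atp2c2. The 10 genes were taken by name from the 23420 genes of a count table. The names were selected on measured values, since results of the same 5 libraries were in view when they were chosen, so all levels and differences of these genes are given as a description. All 10 had a mean over the 5 libraries of 1 CPM or more (counts per 1000000 of the library size scaled by TMM), as did 12915 genes in all, which are called the tested genes.

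The luminal layer of the uterus was collected by laser microdissection from wild-type C57BL/6N females in early pregnancy, and its RNA was amplified with SMART-seq v.4 before sequencing. Day 1 was the day of the vaginal plug. The 5 groups were day 3 morning, day 4 morning, day 4 evening and, on day 5 morning, the layer away from the attached embryo (M pole) and the layer around it (AM pole). Each group was 1 library. On day 4, embryos were checked by flushing 1 uterine horn, while day 5 females had received Chicago blue by vein to show implantation sites. The age of the females was not given in the sources used here. The methods of the study describe pooled RNA of independent samples for its dissected Lif-floxed and Lif-deleted groups, which are not used here, and do not say whether the wild-type libraries were pooled.

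The libraries held 15334674 counts on the morning of day 3, 19529491 on that of day 4, 16560409 on day 4 evening, 16702914 at the M pole and 19136032 at the AM pole. Between 15274 and 15888 genes had at least 1 count in a library. The 10 genes together held 0.738% of the counts on the morning of day 3, 0.966% on that of day 4, 0.805% on day 4 evening, 0.605% at the M pole and 0.311% at the AM pole. A floor of 3 counts corresponded to between 0.161 and 0.190 CPM. With 1 library per group, no difference between groups has a replicate check, and no p-value is given. Brackets give exact 95% intervals, Poisson for a level and Clopper-Pearson for a ratio of counts. They cover counting error at most and leave out any spread between samples. Since amplified reads are not independent molecules, the intervals can be too narrow even for counting error.

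Parathyroid hormone-related protein signals through the receptor encoded by Pth1r, in many tissues over a short range, and it also regulates calcium transport across epithelia. Calcium crosses an epithelial cell by entering through apical channels such as Trpv6, binding to cytosolic calbindins and leaving through basolateral plasma membrane pumps. The calbindin genes S100g and Calb1 are known as targets of ovarian steroids in the uterus.

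The labelled tissue was first set against its markers. All 7 markers of luminal and general epithelium used here (Krt8, Krt18, Krt19, Epcam, Cdh1, Wnt7a and Cldn4) were above 3 counts in each library. Their summed level was 4033 CPM on the morning of day 3, 3921 on that of day 4, 3665 on day 4 evening, 2945 at the M pole and 5897 at the AM pole. Krt8 was the most abundant of them up to day 4 evening, Krt18 at the M pole and Epcam at the AM pole. Single epithelial markers did not move together. Krt19 had 865.6 CPM on the morning of day 3, 763 on that of day 4, 442 on day 4 evening, 38.0 at the M pole and 159 at the AM pole, whereas Cldn4 went from 48.4 CPM on day 4 evening to 142 at the M pole and 496 at the AM pole. The epithelial markers used here were thus counted in all 5 libraries, at levels that differed between libraries.

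Markers of other cells were present too, and the AM pole library stood apart. All 8 stromal markers were above 3 counts in each library, with a summed level of 533 CPM on the morning of day 3, 487 on that of day 4, 544 on day 4 evening, 506 at the M pole and 390.2 at the AM pole. Col3a1 was the most abundant of them except at the AM pole, where it was Hand2. Between the poles the stromal markers went both ways, with Col3a1, Col1a2, Dcn, Hoxa10 and Vim lower at the AM pole and Hand2 (20.9 CPM at the M pole and 132 at the AM pole), Col1a1 (24.6 and 46.2) and Pdgfra (34.7 and 37.7) higher. The 6 leukocyte markers summed to 233, 334, 298, 233 and 87.6 CPM in the same order of libraries, led by Lyz2, and Cd3e was at 0 on day 4 evening. Of these, Cd68 was higher at the AM pole (38.9 CPM) than at the M pole (11.8). The 6 smooth muscle markers summed to 10.9, 18.9, 24.4, 31.8 and 395 CPM, led by Des. The sum at the AM pole rested mostly on Des, with 354 CPM against 19.8 at the M pole. Each of the other smooth muscle markers was also higher at the AM pole than at the M pole, at lower levels. Cnn1 and Actg2 were at 0 on day 4 morning, Actg2 also on day 4 evening, and all 6 were above 3 counts at both poles on day 5. The 5 endothelial markers were above 3 counts in every library and summed to 11.98, 25.1, 29.96, 44.7 and 95.5 CPM. Kdr led them on day 3 morning, Tek at the M pole, and Cdh5 in the other libraries. The sum at the AM pole rested on Cdh5, with 71.4 CPM against 7.13 at the M pole, while Kdr, Emcn and Tek were lower at the AM pole than at the M pole.

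Of 9 embryo markers, 3 were above 3 counts on the morning of day 3, 2 on that of day 4, 4 on day 4 evening, 2 at the M pole and 9 at the AM pole. They summed to 4.49, 11.97, 8.28, 1.98 and 81.0 CPM in that order. The most abundant was Elf5 up to day 4 evening and Eomes on day 5, so that part of this list was counted in the uterine layer before attachment as well. Cdx2, Pou5f1, Nanog and Hand1 were at 0 in all libraries but that of the AM pole, where they had 22, 68, 10 and 5 counts. Sox2 was at 0 on day 4 evening and at the M pole, and Tdgf1 on both mornings before day 5 and at the M pole. The 6 markers of glandular epithelium summed to 5.87, 6.01, 1.83, 4.13 and 31.2 CPM. Foxa2 and Lif were at 0 on day 4 evening, Prss28 and Prss29 in all libraries before day 5, Spink3 on day 3 morning and Il8 (Cxcl15) at the M pole. Lif was the most abundant on day 3 morning and at the AM pole, Foxa2 on day 4 morning, Spink3 on day 4 evening and Prss29 at the M pole. Of the 6 markers, 4 had their highest level at the AM pole, with 304 counts for Lif, which is not made by glands alone, 81 for Spink3, 74 for Prss29 and 44 for Prss28, of 538 summed counts. Foxa2 was highest on day 4 morning, with 51 counts against 21 at the AM pole, and Il8 on day 3 morning, with 34 against 14. Of 4 erythroid markers, 3 were in the table, Hba-a1 and Hba-a2 were at 0 throughout, and Beta-s, the remaining marker, had 0.633, 1.00, 8.09, 2.63 and 1.16 CPM. In dissected tissue, fewer cells of a type and less RNA per cell cannot be told apart.

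**Figure D1:**
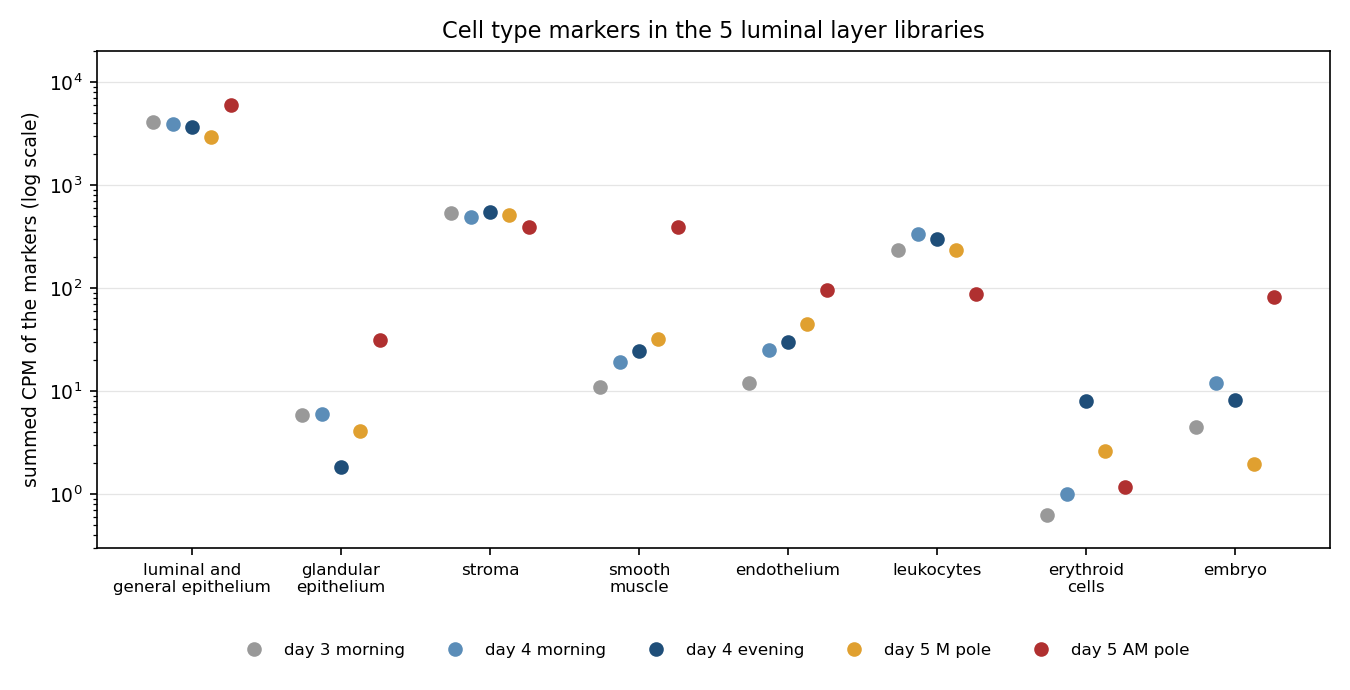
Summed level of 8 lists of cell type markers (vertical log axis, CPM) in the 5 libraries, with 1 point per library. The AM pole library has the highest sums for epithelium (5897 CPM), smooth muscle (395 CPM), endothelium (95.5 CPM), embryo (81.0 CPM) and glandular epithelium (31.2 CPM). It has the lowest for stroma (390.2 CPM) and leukocytes (87.6 CPM).

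The libraries were compared in order of time, and on day 5 by place. A gene was called when its log2 CPM, with a prior count of 2, differed by more than 1, that is past 2-fold. Between day 3 morning and day 4 morning, 3 of the 10 genes were higher on day 4 (S100g, Atp2b4 and Atp2c2) and 2 were lower (Pthlh and Atp2b1). Of the tested genes, 965 (7.47%) were higher and 1480 (11.5%) lower. Between day 4 morning and day 4 evening, 2 of the 10 genes were higher in the evening (Pthlh and Trpv6) and 0 were lower, beside 7.21% and 6.95% of the tested genes. This step had the fewest calls of the 5 comparisons, among the 10 genes and among all tested genes.

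From day 4 evening to the M pole on day 5, 1 of the 10 genes was higher (Trpv6) and 4 were lower (Pthlh, Atp2b4, Atp2c2 and Calb1), beside 12.9% of tested genes higher and 12.7% lower. From day 4 evening to the AM pole, 3 of the 10 were higher (Pthlh, Trpv6 and Atp2b1) and 6 were lower (Pth1r, S100g, Trpv4, Atp2b4, Atp2c2 and Calb1), beside 19.1% higher and 20.7% lower. These comparisons share the day 4 evening library, so their values are given side by side only. Between the poles on day 5, 1 gene was higher at the AM pole (Pthlh) and 3 were lower there (S100g, Trpv4 and Calb1), beside 13.4% and 15.0% of tested genes. Since measured values chose the 10 genes, nothing is read from these counts against the background.

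The median log2 difference of the 10 genes was 0.19 for day 4 morning against day 3 morning and 0.17 for day 4 evening against day 4 morning. It was -0.48 for the M pole against day 4 evening, -1.20 for the AM pole against day 4 evening and -0.28 for the AM pole against the M pole. Over all tested genes the medians were 0.00, 0.00, 0.01, -0.02 and -0.05 in that order. Scaling by library totals moved the median of all tested genes to -0.28, 0.05, 0.23, -0.11 and -0.36. It changed the split of all calls to 538 higher and 2209 lower on day 4 morning against day 3 morning. The split became 2250 higher and 1264 lower at the M pole, where TMM gave 1669 and 1639, and 1288 higher and 2807 lower between the poles, where TMM gave 1729 and 1932.

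**Figure D2:**
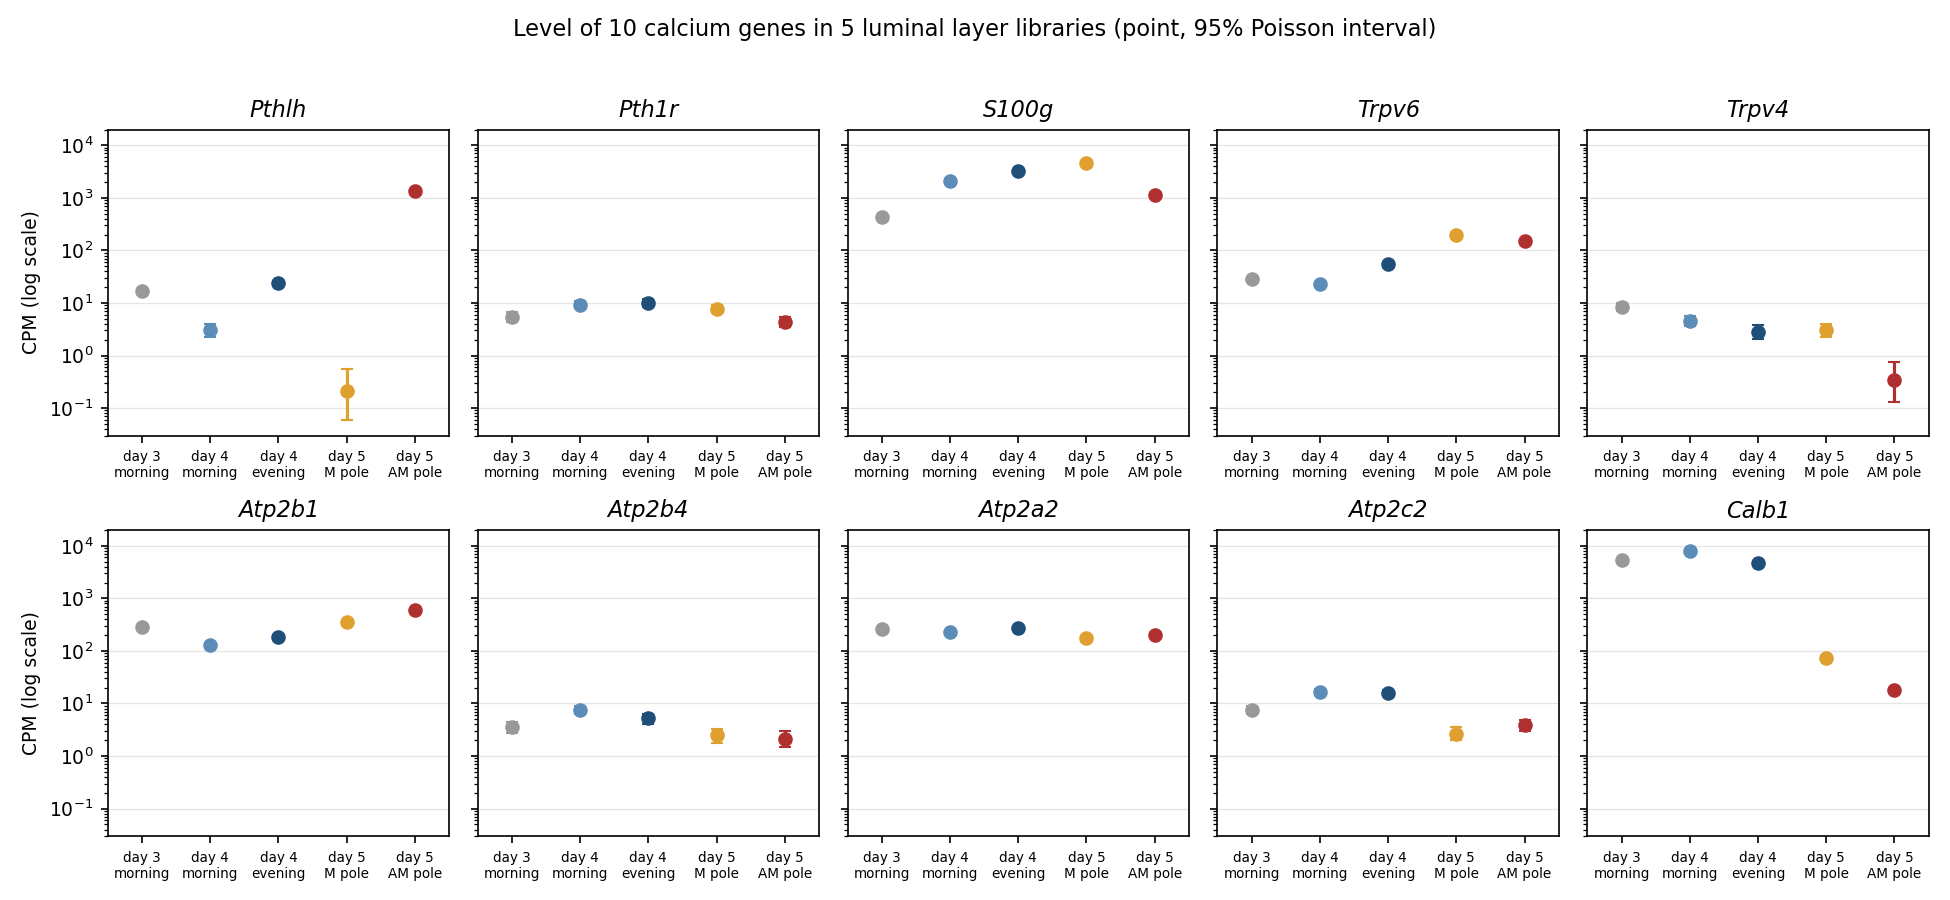
Level of the 10 genes (vertical log axis, CPM) in the 5 libraries, 1 panel per gene, with points for the library and bars for its exact 95% Poisson interval. Pthlh ranges from 0.214 CPM at the M pole to 1343 CPM at the AM pole, and Calb1 from 7978 CPM on day 4 morning to 17.8 CPM at the AM pole.

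Pthlh, the ligand, had 291 counts on the morning of day 3, 54 on that of day 4, 375 on day 4 evening, 4 at the M pole and 23123 at the AM pole. Its level was 16.8 CPM [14.9, 18.8] on the morning of day 3, 3.01 [2.26, 3.92] on that of day 4 and 23.7 [21.4, 26.2] on day 4 evening. On day 5 it was 0.214 CPM [0.0584, 0.549] at the M pole, near the floor of 0.161, and 1343 [1325, 1360.0] at the AM pole. The AM pole library was far above the others and the M pole library far below them, and no pair of intervals overlapped.

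The Pthlh level on day 4 morning was 5.57-fold [4.16, 7.60] below that on day 3 morning, a log2 difference of -2.43. By the evening it was 7.88-fold [5.91, 10.7] above the morning, a log2 difference of 2.93. On day 5 the same gene moved in opposite directions at the poles. At the M pole it was 111-fold [42.8, 408] below day 4 evening by counts, a log2 difference of -6.18, and only 19 tested genes had a lower value in that comparison. At the AM pole it was 56.6-fold [51.1, 62.9] above day 4 evening, a log2 difference of 5.82, with 150 tested genes higher. Between the poles, Pthlh was 6261-fold [2445, 22979.7] higher at the AM pole by counts, and its log2 difference of 11.99 was exceeded by 1 tested gene. The folds are ratios of scaled counts, while the log2 values carry the prior count, which shortens differences against a library with so few counts.

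Per length, Pthlh had 888 RPKM (CPM per kilobase of gene length) at the AM pole, the level at place 57 of the tested genes, and 0.142 RPKM at the M pole, at place 12522. The embryo markers named above were also highest in the AM pole library, with 1395 summed counts against 37 at the M pole, where Pthlh had 23123 and 4. Summed embryo marker counts were 78 on the morning of day 3, 215 on that of day 4 and 131 on day 4 evening, mostly from Elf5 and Eomes. The summed smooth muscle, endothelial and glandular markers were likewise highest at the AM pole, as were the stromal marker Hand2 and 4 of the 6 glandular markers taken singly, but not Foxa2 and Il8. The part of RNA from embryo, muscle, endothelium, gland or stroma in the Pthlh level was not tested.

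Pth1r, the receptor gene, had 94 counts on the morning of day 3, 166 on that of day 4, 159 on day 4 evening, 144 at the M pole and 76 at the AM pole. The levels were 5.41 CPM [4.37, 6.62], 9.24 [7.89, 10.8], 10.1 [8.55, 11.7], 7.72 [6.51, 9.09] and 4.41 [3.48, 5.52] in that order. Day 3 morning and the AM pole were low and the other libraries higher, and neighbours in the order of levels mostly overlapped. The ratio held 1 for day 4 evening over day 4 morning (1.09 [0.869, 1.36]), for day 4 morning over the M pole (1.20 [0.952, 1.51]) and for day 3 morning over the AM pole (1.23 [0.897, 1.68]). The receptor gene was thus lowest in the library in which the ligand gene was highest. At the AM pole it was 2.28-fold [1.72, 3.03] below day 4 evening, a log2 difference of -1.17. Against the M pole its log2 difference was -0.79, short of 2-fold, but -1.10 when library totals were used. Its highest over lowest level was 2.28-fold, against 6261-fold for the ligand gene.

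Trpv6, the apical channel of calcium-absorbing epithelia, had 498 counts on the morning of day 3, 415 on that of day 4, 867 on day 4 evening, 3602 at the M pole and 2557 at the AM pole. The levels were 28.7 CPM [26.2, 31.3], 23.1 [20.9, 25.4], 54.8 [51.2, 58.6], 193 [187, 199.5] and 148 [143, 154]. Both day 5 libraries were high and both morning libraries before them low, with day 4 evening between, and no intervals overlapped. Trpv6 was the only one of the 10 genes called higher at both poles against day 4 evening with TMM scaling (Atp2b1 was called at both poles with library totals), by 3.52-fold [3.27, 3.80] at the M pole and 2.71-fold [2.51, 2.93] at the AM pole. Between the poles it differed by a log2 value of -0.38. It was already 2.37-fold [2.11, 2.67] higher on day 4 evening than on day 4 morning.

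Trpv4, a channel gated by osmotic and mechanical stimuli among others, had 146 counts on the morning of day 3, 81 on that of day 4, 45 on day 4 evening, 56 at the M pole and 6 at the AM pole. The levels were 8.41 CPM [7.10, 9.89], 4.51 [3.58, 5.61], 2.84 [2.07, 3.81], 3.00 [2.27, 3.90] and 0.348 [0.128, 0.758]. The AM pole was below all other libraries, day 3 morning above them, and the M pole and day 4 evening could not be told apart (1.06-fold [0.700, 1.60]). At the AM pole Trpv4 was 8.62-fold [3.72, 24.5] below the M pole and 8.16-fold [3.47, 23.4] below day 4 evening. The pair of channel genes thus had opposite differences at the AM pole against day 4 evening, log2 1.44 for Trpv6 and -2.68 for Trpv4. On day 4 morning the log2 difference of Trpv4 was -0.88 against day 3 morning, and -1.18 with library totals.

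S100g, a small cytosolic calcium-binding protein of the calbindin group, had 7577 counts on the morning of day 3, 37717 on that of day 4, 51250 on day 4 evening, 85951 at the M pole and 19459 at the AM pole. The levels were 436 CPM [427, 446], 2100.1 [2079, 2121], 3239 [3211, 3268], 4608 [4577, 4639] and 1129.8 [1114, 1146]. The level climbed in every step from day 3 morning to the M pole, while the AM pole fell between day 3 morning and day 4 morning, with no overlap of intervals. S100g was 4.81-fold [4.70, 4.93] higher on day 4 morning than a day earlier, a log2 difference of 2.27. The AM pole was 4.08-fold [4.02, 4.14] below the M pole and 2.87-fold [2.82, 2.92] below day 4 evening. The M pole itself differed from day 4 evening by a log2 value of 0.51. By length, S100g had 9600.0 RPKM at the M pole, at place 3 of the tested genes, and 2354 RPKM at the AM pole, at place 13.

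Calb1, the other calbindin gene, had 94960 counts on the morning of day 3, 143278 on that of day 4, 73114 on day 4 evening, 1357 at the M pole and 306 at the AM pole. The levels were 5468 CPM [5433, 5503], 7978 [7937, 8019], 4621 [4588, 4655], 72.8 [68.9, 76.7] and 17.8 [15.8, 19.9]. All 3 libraries before day 5 were high, both day 5 libraries were low, and no intervals overlapped. The M pole was 63.5-fold [60.2, 67.1] below day 4 evening, a log2 difference of -5.99, with 25 tested genes lower. The AM pole was 260.1-fold [232, 292] below day 4 evening, a log2 difference of -8.01, with 3 tested genes lower. Calb1 was also 4.09-fold [3.61, 4.65] lower at the AM pole than at the M pole. Before day 5 its changes stayed within 2-fold, with log2 differences of 0.55 and -0.79.

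The calbindin genes therefore changed places. Per length, S100g had 909 RPKM and Calb1 1907 on day 3 morning, a ratio of S100g to Calb1 of 0.477 [0.466, 0.488]. The ratio was 1.57 [1.55, 1.59] on day 4 morning, with 4375 against 2783 RPKM, and 4.19 [4.14, 4.23] on day 4 evening, with 6749 against 1612 RPKM. On day 5 it was 378 [359, 399] at the M pole, with 9600.0 against 25.4 RPKM, and 379.8 [339, 427] at the AM pole, with 2354 against 6.20 RPKM. Although both genes were lower at the AM pole than at the M pole, the ratio did not differ between the poles beyond its interval. As reads were counted per gene in amplified cDNA, levels of different genes also depend on how well each transcript was amplified. The summed leukocyte and stromal markers were lower at the AM pole as well, though single markers of both lists were higher there. The epithelial sum was highest at the AM pole (5897 CPM) and lowest at the M pole (2945 CPM). Against day 4 evening, Krt19 and Krt8 were lower at both poles, Krt18, Wnt7a and Cldn4 were higher at both, and Epcam and Cdh1 were higher at the AM pole and lower at the M pole. The part of cell make-up in the calbindin levels was not tested.

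Atp2b1, the widely expressed plasma membrane calcium pump, had 4889 counts on the morning of day 3, 2340 on that of day 4, 2851 on day 4 evening, 6502 at the M pole and 10404 at the AM pole. The levels were 282 CPM [274, 289.5], 130.3 [125, 136], 180.2 [174, 187], 349 [340.2, 357] and 604 [593, 616]. The day 5 libraries were the highest, the AM pole above the M pole, day 4 morning was the lowest, and no intervals overlapped. The AM pole was 3.35-fold [3.22, 3.50] above day 4 evening. The M pole was 1.93-fold [1.85, 2.02] above it, a log2 difference of 0.95 just short of 2-fold, which library totals moved to 1.18. Day 4 morning was 2.16-fold [2.06, 2.27] below day 3 morning.

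Atp2b4, another pump of that family, stayed low, between 37 counts (2.15 CPM) at the AM pole and 136 counts (7.57 CPM) on day 4 morning. It had 61 counts on day 3 morning, 82 on day 4 evening and 46 at the M pole. The M pole did not differ beyond its interval from day 3 morning or from the AM pole. Its calls lay near 2-fold. The log2 difference was 1.08 [0.66, 1.57] on day 4 morning against day 3 morning and -1.04 [-1.63, -0.53] at the M pole against day 4 evening. Both fell within 2-fold with library totals, at 0.79 and -0.82. At the AM pole it was -1.23 [-1.87, -0.69] against day 4 evening.

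Atp2a2, the housekeeping pump that fills the endoplasmic reticulum, varied least of the 10 genes. It had 4472 counts on the morning of day 3, 4151 on that of day 4, 4281 on day 4 evening, 3357 at the M pole and 3441 at the AM pole, or 258, 231, 271, 180.0 and 199.8 CPM. The day 5 libraries were lower than the earlier ones by less than 2-fold, with log2 differences from day 4 evening of -0.59 at the M pole and -0.44 at the AM pole. The AM pole was above the M pole by a log2 value of 0.15, but below it by library totals, at -0.16. Its highest level was 1.504-fold its lowest.

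Atp2c2, a calcium pump of the secretory pathway, had 132 counts on the morning of day 3, 298 on that of day 4, 251 on day 4 evening, 50 at the M pole and 66 at the AM pole. The levels were 7.60 CPM [6.36, 9.01], 16.6 [14.8, 18.6], 15.9 [14.0, 18.0], 2.68 [1.99, 3.53] and 3.83 [2.96, 4.88]. The day 4 libraries were high and overlapped, the day 5 libraries were low and overlapped, and day 3 morning lay between. Atp2c2 was 5.92-fold [4.35, 8.19] lower at the M pole and 4.14-fold [3.15, 5.52] lower at the AM pole than on day 4 evening. Its log2 difference of 1.11 on day 4 morning against day 3 morning fell to 0.82 with library totals.

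**Figure D3:**
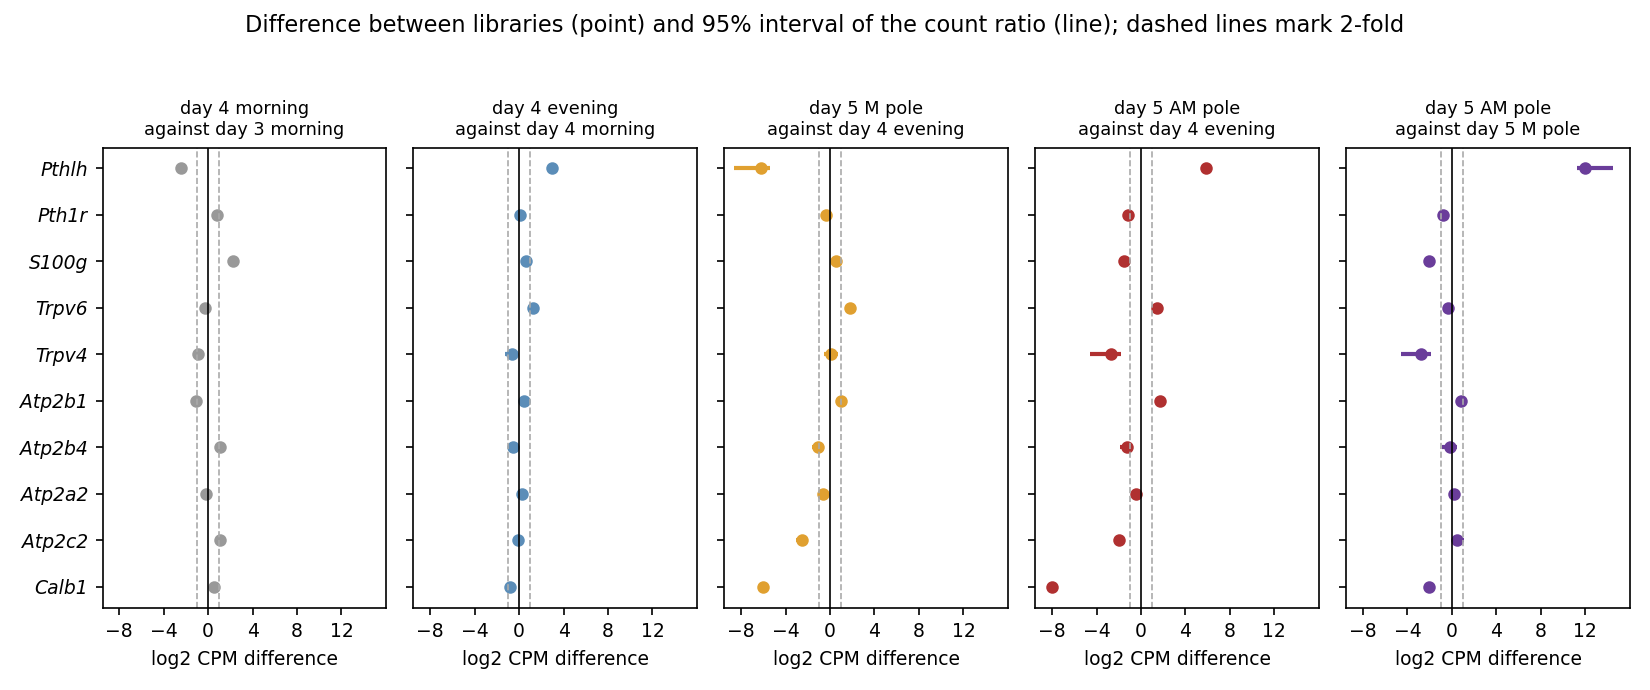
Log2 CPM difference (horizontal axis) of the 10 genes in the 5 comparisons, 1 panel each, with points for the difference and lines for the exact 95% interval of the count ratio. Pthlh lies at -6.18 at the M pole and 5.82 at the AM pole against day 4 evening, while Calb1 lies at -5.99 and -8.01.

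Per length, S100g was between 909 and 9600.0 RPKM in the 5 libraries, and Calb1 between 6.20 and 2783. Pthlh had 888 RPKM at the AM pole but at most 15.7 RPKM in the other libraries. Atp2b1 was between 18.3 and 84.7 RPKM, Atp2a2 between 31.4 and 47.3 and Trpv6 between 7.89 and 66.0, so that these levels overlapped. Atp2c2, Pth1r, Trpv4 and Atp2b4 stayed at or under 5.15 RPKM. The highest level was 6261-fold the lowest for Pthlh, 449-fold for Calb1, 24.1-fold for Trpv4, 10.6-fold for S100g and 8.36-fold for Trpv6. It was 6.19-fold for Atp2c2, 4.64-fold for Atp2b1, 3.52-fold for Atp2b4, 2.28-fold for Pth1r and 1.504-fold for Atp2a2. The AM pole held the highest level of Pthlh and Atp2b1 and the lowest of Pth1r, Trpv4, Atp2b4 and Calb1. The M pole held the highest level of S100g and Trpv6 and the lowest of Pthlh, Atp2a2 and Atp2c2. Of these extremes, the lows of Pth1r, Atp2b4 and Atp2c2 did not differ from the next library beyond their intervals.

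Another 83 genes of calcium handling, in 7 lists by role, were counted in the same way, and 56 of them were tested. The lists were chosen with earlier results of these data known, so nothing is read from their counts against the background. On day 4 morning against day 3 morning, 5 of the 56 were higher (8.93%) and 6 lower (10.7%) past 2-fold, beside 7.47% and 11.5% of all tested genes. On day 4 evening against day 4 morning, 3 were higher (5.36%) and 4 lower (7.14%), beside 7.21% and 6.95%. At the M pole against day 4 evening, 11 were higher (19.6%) and 7 lower (12.5%), beside 12.9% and 12.7% of all tested genes. Around the embryo, at the AM pole, 21 were higher (37.5%) and 9 lower (16.1%), beside 19.1% and 20.7%, with the same day 4 evening library in both. Between the poles, 9 were higher at the AM pole and 9 lower (16.1% each), beside 13.4% and 15.0%. Their median log2 differences were -0.21, -0.08, 0.27, 0.42 and 0.26 in the order of the comparisons, beside medians of all tested genes between -0.05 and 0.01. Trpc1 and Trpv5 are among those higher at the AM pole in both comparisons, and their means reached the filter only through that library. Calml4 is among those lower on day 4 morning, and its mean reached the filter only through day 3 morning.

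Of 15 other hormones and receptors, 6 were tested. Casr, the calcium-sensing receptor gene, Cyp24a1, Calcr and Pth2 had 0 counts in all libraries, Vdr had at most 2 counts, and Pth, the parathyroid hormone gene, had 3 counts on day 3 morning and 0 elsewhere. Stc1, which encodes the hormone stanniocalcin, had 2002 counts on the morning of day 3, 2662 on that of day 4, 379 on day 4 evening, 30 at the M pole and 2348 at the AM pole. Like Pthlh, it was high at the AM pole and low at the M pole, with an 84.8-fold difference and a log2 difference of 6.31 [5.89, 6.98]. Unlike Pthlh, it was high on day 4 morning. Stc2, of the same family and named after its values were seen, had 132, 15, 7, 57 and 159 counts. It was higher than on day 4 evening at both poles, with log2 differences of 2.51 at the M pole and 4.07 at the AM pole. Calcrl, a receptor for adrenomedullin and related peptides, had 576, 374, 661, 1139 and 89 counts in the order of the libraries. It was 11.8-fold lower at the AM pole than at the M pole, a log2 difference of -3.53 [-3.89, -3.25]. Its partner gene Ramp3 had 302, 133, 239, 170 and 40 counts and was lower at the AM pole too, with a log2 difference of -1.92 from the M pole. Within this list, 1 gene was higher and 2 lower on day 4 morning against day 3 morning, beside 7.47% and 11.5% of all tested genes. On day 4 evening 2 were higher and 2 lower than on that morning, beside 7.21% and 6.95%. At the M pole 1 was higher and 1 lower than on day 4 evening, beside 12.9% and 12.7% of all tested genes. At the AM pole 2 were higher and 2 lower, beside 19.1% and 20.7%. Between the poles 2 were higher at the AM pole and 3 lower, beside 13.4% and 15.0%. Its median log2 differences were -0.51, -0.20, 0.17, -0.31 and -0.53 in the order of the comparisons.

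Of 14 other entry channels and their regulators, 12 were tested. Against day 4 evening, 3 were higher and 2 lower at the M pole, and 5 higher and 3 lower at the AM pole (of all tested genes, 12.9% and 12.7% at the M pole and 19.1% and 20.7% at the AM pole). Cacna1d, a voltage-gated channel gene, had 279, 539, 479, 82 and 31 counts, with log2 differences from day 4 evening of -2.75 at the M pole and -3.99 at the AM pole. Stim1, the sensor of store-operated entry, had 518, 1133, 540, 253 and 172 counts and was lower at both poles as well, with log2 differences of -1.32 and -1.76. Orai3, a store-operated channel gene, had 732, 1177, 785, 774 and 316 counts and was lower past 2-fold at the AM pole only, with a log2 difference of -1.43 from day 4 evening. The 5 called higher at the AM pole, named after their values were seen since 4 of them had a mean under 10 CPM, were Trpc1, Trpv5, Orai2, Pkd2 and Trpm4. Their log2 differences from day 4 evening were 4.01, 2.29, 2.10, 1.37 and 1.05 in that order, and Trpc1, Orai2 and Pkd2 were also called at the M pole. Trpc1 and Trpv5 had few counts, from 2 in their lowest libraries to 65 and 61 at the AM pole. Their means of 1.13 and 1.12 CPM passed the filter of 1 CPM only through the AM pole library. Their calls as higher there, and their part in the count of 5, thus follow in part from the filter. On day 4 morning against day 3 morning 2 of the 12 were higher and 2 lower, beside 7.47% and 11.5% of all tested genes. On day 4 evening 0 were called, beside 7.21% higher and 6.95% lower. Between the poles 3 were higher at the AM pole, Trpc1 and Trpv5 among them, and 2 lower, beside 13.4% and 15.0%. The medians of the list were 0.05, 0.08, 0.06, 0.64 and 0.11 in the order of the comparisons.

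Of 13 other cytosolic calcium-binding proteins, 9 were tested, and Calb2 and Pvalb had 0 counts in all libraries. Against day 4 evening, 2 were higher and 0 lower at the M pole, and 4 higher and 1 lower at the AM pole (of all tested genes, 12.9% and 12.7% at the M pole and 19.1% and 20.7% at the AM pole). S100a6 had 2245, 1298, 1559, 3140 and 13905 counts and was 4.80-fold higher at the AM pole than at the M pole, a direction opposite to that of S100g. S100a11 had 15913, 12172, 10123, 24964 and 41346 counts, with log2 differences from day 4 evening of 1.06 at the M pole and 1.91 at the AM pole. Sri, the sorcin gene, had 1988, 2080, 2387, 7054 and 7240 counts, with log2 differences of 1.33 and 1.48. S100a11 and Sri were thus called higher at both poles, where Calb1 was lower, while S100a6 was called at the AM pole and had a log2 difference of 0.77 at the M pole. On day 4 morning 0 of the 9 were higher and 2 lower than on day 3 morning, beside 7.47% and 11.5% of all tested genes. The 2 were S100a10 and Calml4, both named after their values were seen. Calml4 had 100, 12, 6, 8 and 2 counts, and its mean of 1.47 CPM passed the filter only through day 3 morning. Its call as lower on day 4 morning thus follows in part from the filter. Calml4 was also the gene of this list called lower at the AM pole against day 4 evening and against the M pole. On day 4 evening 0 were called, beside 7.21% higher and 6.95% lower. Between the poles 1 was higher and 1 lower, beside 13.4% and 15.0%. The medians of the list were -0.35, 0.04, 0.31, 0.72 and 0.40 in the order of the comparisons.

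Of 8 other extrusion genes, 3 were tested, and these had large differences on day 5. Slc24a1, an exchanger gene named after its values were seen, had 0 counts in all libraries but that of the AM pole, where it had 86, and with a mean of 0.999 CPM it was not tested. Atp2b2, a plasma membrane pump of the family of Atp2b1, had 2169, 3056, 2022, 50 and 56 counts. It was 47.7-fold below day 4 evening at the M pole and 39.3-fold below at the AM pole, with log2 differences of -5.52 [-6.01, -5.17] and -5.25 [-5.71, -4.91]. The pump genes Atp2b1 and Atp2b2 were thus called in opposite directions at the AM pole, while Atp2b1 stayed within 2-fold at the M pole. Slc8a1, a sodium-calcium exchanger gene, had 161, 103, 50, 1283 and 650 counts, and was 21.8-fold above day 4 evening at the M pole and 11.9-fold above at the AM pole. Slc24a4, another exchanger gene, with values seen before it was named, had 38, 187, 63, 0 and 1 counts. Of the 3, 1 was higher and 0 lower on day 4 morning against day 3 morning, beside 7.47% and 11.5% of all tested genes. On day 4 evening 0 were higher and 1 lower, beside 7.21% and 6.95%. At each pole against day 4 evening 1 was higher and 2 lower. Of all tested genes, 12.9% and 12.7% were so called at the M pole and 19.1% and 20.7% at the AM pole. Between the poles 0 of the 3 tested were called, beside 13.4% higher and 15.0% lower. The medians of the list were 0.45, -0.84, -5.16, -4.57 and 0.27 in the order of the comparisons.

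Of 13 other genes of store pumps and release channels, 7 were tested, and 2 were higher and 0 lower at each pole against day 4 evening (of all tested genes, 12.9% and 12.7% at the M pole and 19.1% and 20.7% at the AM pole). These were Itpr3, with 263, 270, 198, 672 and 1193 counts, and Tmbim6, with 5851, 8626, 5636, 15288 and 13087. Itpr2, which with Itpr3 encodes release channels of the endoplasmic reticulum, had 3102, 6093, 5877, 8814 and 3762 counts and was lower at the AM pole than at the M pole, with a log2 difference of -1.11. It was the single gene of the list called between the poles, where 13.4% of all tested genes were higher and 15.0% lower. Before day 5, 0 were called, beside 7.47% and 11.5% on day 4 morning and 7.21% and 6.95% on day 4 evening. The medians of the list were -0.21, -0.07, 0.01, 0.29 and -0.11 in the order of the comparisons.

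Of 11 calcium-binding proteins of the secretory pathway, 10 were tested. At the AM pole, 5 were higher and 1 lower than on day 4 evening, against 1 higher and 0 lower at the M pole (of all tested genes, 12.9% and 12.7% at the M pole and 19.1% and 20.7% at the AM pole). Nucb2 had 133, 120, 127, 447 and 656 counts, with log2 differences of 1.56 and 2.23 from day 4 evening at the M pole and the AM pole. Rcn1 had 1043, 752, 619, 1026 and 1956 counts, and Calr, the calreticulin gene, had 5242, 4334, 3136, 4407 and 8519. Both were past 2-fold at the AM pole only, with log2 differences of 1.53 and 1.32. The gene called lower there was Casq1, named after its values were seen, with 120, 95, 34, 25 and 1 counts. Its log2 difference at the AM pole was -3.71 from day 4 evening and -3.07 from the M pole. Earlier, 0 were called on day 4 morning, beside 7.47% of all tested genes higher and 11.5% lower. On day 4 evening 0 were higher and 1 was lower, beside 7.21% and 6.95%. Between the poles 2 were higher and 1 lower, beside 13.4% and 15.0%. The medians of the list were -0.26, -0.07, 0.51, 0.80 and 0.30 in the order of the comparisons.

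Of 9 genes of mitochondrial calcium uptake and exchange, 9 were tested. Mcu, the pore of the uniporter, had 473, 1564, 770, 386 and 479 counts, with a log2 difference of 1.67 on day 4 morning against day 3 morning and -1.23 at the M pole against day 4 evening. Ccdc109b, which encodes an inhibitory subunit of that pore, had 306, 185, 880, 290 and 590 counts, and was 5.40-fold higher on day 4 evening than on day 4 morning. Efha2, a regulatory subunit gene, had 203, 216, 238, 492 and 217 counts and was lower at the AM pole than at the M pole, with a log2 difference of -1.06. Slc24a6 (Slc8b1), the mitochondrial exchanger gene whose product carries calcium out, was named after its values were seen. It had 75, 80, 56, 393 and 198 counts, and was the gene called higher at the M pole and, with Letm1, at the AM pole. Of the 9, 1 was higher and 0 lower in each step up to day 4 evening. Of all tested genes, 7.47% and 11.5% were so called on day 4 morning and 7.21% and 6.95% on day 4 evening. Against day 4 evening, 1 was higher and 2 lower at the M pole, beside 12.9% and 12.7%. At the AM pole 2 were higher and 0 lower, beside 19.1% and 20.7%. Between the poles 1 was higher and 1 lower, beside 13.4% and 15.0%. The medians of the list were 0.04, -0.25, -0.35, -0.41 and 0.28 in the order of the comparisons.

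Likeness of pattern was measured over the 5 libraries as the root mean square difference of log2 CPM, each gene centred on its own mean. The 5 tested genes nearest to Pthlh were Sprr2d (1.31), Sprr2b (1.71), Ptgs2 (1.72), Sprr2f (1.74) and Egr2 (1.77). Sprr2d, the nearest, had 69, 10, 20, 4 and 6961 counts, and Ptgs2 had 1553, 335, 972, 67 and 8256. These share with Pthlh a high at the AM pole and a low at the M pole, but the distances are large. Nearest to Trpv6 were Klc3 (0.12), Agpat9 (0.13), Myo1d (0.16), Fam110c (0.17) and D030056L22Rik (0.17), which were much closer. Nearest to S100g were Arhgef15 (0.21), Cpsf4l (0.31), Tlr7 (0.32), Zfp462 (0.38) and Maob (0.39), and some of these had few counts, such as Arhgef15 with 2, 24, 41, 56 and 12. Nearest to Calb1 were Acbd7 (0.17), Meig1 (0.29), Gstm2 (0.33), 4833423E24Rik (0.36) and Slc16a12 (0.41). Acbd7 had 3075, 4375, 1813, 41 and 9 counts, and Gstm2 had 30204, 77141, 31070, 827 and 165.

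The genes lie apart in the genome, with positions from the count table in GRCm38. Pthlh spans chr6:147252110-147264085 and Trpv6 chr6:41620619-41636405, both on the minus strand of chromosome 6. S100g spans chrX:162961992-162964599 on the minus strand, Calb1 chr4:15881264-15906709 on the plus strand, and Pth1r chr9:110722085-110747145 on the minus strand. Trpv4 (chr5:114622154-114658421) and Atp2a2 (chr5:122453513-122502225) lie on the minus strand of chromosome 5. Atp2b1 lies at chr10:98915152-99026143 and Atp2c2 at chr8:119700009-119757718, both on the plus strand, and Atp2b4 at chr1:133702674-133753747 on the minus strand. Among the genes of the count table, 0 others had an exon that overlapped an exon of any of the 10. The strand setting of the counting was not given in the sources used here, so reads of antisense transcripts cannot be told apart from those of the genes.

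Promoter sequences of 7 of the 10 genes were matched by symbol in RefSeq windows of GRCm38.p6, and the 250 bases before each start were searched on both strands for 4 short motifs. These were TTCNNNGAA (STAT, in 7.01% of 32817 promoters), TGANTCA (AP-1, in 6.75%), AGGTCA (a single arm of the site of nuclear receptors such as the estrogen receptor, in 14.0%) and AGAACA (a single arm of the site of the progesterone and glucocorticoid receptors, in 16.1%). Calb1, Atp2a2 and Atp2c2 were not among the sequences. S100g and Trpv6 each had 2 AGGTCA matches, and Trpv6 also had 1 TTCNNNGAA and 1 AGAACA match. Pth1r had 1 AGAACA match in its first window of 3, Atp2b4 had 1, and Pthlh, Trpv4 and Atp2b1 had 0 matches to the 4 motifs. The promoters of S100g, Trpv6 and Pthlh are shown because, among the genes with an entry, the account of day 5 turns on them, in lower case with matches in capitals. S100g is at chrX:162964600-162964849, Trpv6 at chr6:41636406-41636655, both with 250 bases, and Pthlh at chr6:147264184-147264263, with the 80 bases outside annotated exons, all 3 on the minus strand and written from 5′ to 3′. No match overlapped another in these 3. A match is a run of letters and not a bound site.
S100g: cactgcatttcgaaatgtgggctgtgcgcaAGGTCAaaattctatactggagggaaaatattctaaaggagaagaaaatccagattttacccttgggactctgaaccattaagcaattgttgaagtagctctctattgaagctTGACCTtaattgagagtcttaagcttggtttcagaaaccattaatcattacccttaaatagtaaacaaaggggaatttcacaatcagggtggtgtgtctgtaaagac
Trpv6: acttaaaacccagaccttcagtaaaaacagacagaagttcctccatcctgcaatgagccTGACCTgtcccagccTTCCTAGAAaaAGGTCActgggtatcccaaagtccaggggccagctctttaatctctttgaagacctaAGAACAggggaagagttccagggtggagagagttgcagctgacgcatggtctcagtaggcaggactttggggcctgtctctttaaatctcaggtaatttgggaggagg
Pthlh: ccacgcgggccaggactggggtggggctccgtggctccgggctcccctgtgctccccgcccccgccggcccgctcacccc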

How the data were processed

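The authors deposited raw read counts per gene for the 5 libraries, as whole numbers without normalization. The submitters' processing notes name HISAT2, the genome builds GRCm38 and mm10, and featureCounts of Subread 2.0.0. The gene annotation, the strand setting and the handling of reads with several alignments were not given in the sources used here. Counts were scaled by TMM in edgeR 4.0.16 (R 4.3.3) and read with Python 3.11.15, pandas 2.3.3, numpy 2.4.6, scipy 1.17.1 and matplotlib 3.10.9. CPM is the count divided by the scaled library size in units of 1000000, and RPKM is CPM per kilobase of the gene length in the table. Genes whose mean CPM reached 1 were tested, and a gene was called past a 2-fold difference in log2 CPM, to which a prior count of 2 was added.

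The members and lists were chosen with earlier results of these data known. Named were all 10 members, at most 3 genes with the largest change in each other list (mean of at least 10 CPM), and the 5 genes most like Pthlh, Trpv6, S100g and Calb1. Others, such as Slc24a4, were named after their values were seen. Alternatives were library totals, size factors of DESeq2 1.42.0, a prior of 0.5 counts, no filter, a mean CPM of 5 and a fold of 4. Totals without Rn45s and Lars2, which held from 15.0% to 23.2% of the counts, and calls whose whole interval lay past 2-fold were chosen after seeing the data. From the list of epithelial markers, 1 gene is not reported here and is not in its sums.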

Additional observations from a re-analysis of the deposited data

Results flagged for a closer look

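Genes that differed in opposite directions from day 4 evening at the poles, each with an interval apart from 0, were looked at again. Among the 10 genes, Pthlh had log2 differences from day 4 evening of 5.82 at the AM pole and -6.18 at the M pole, which are 11.99 apart. S100g had -1.52 at the AM pole and 0.51 at the M pole, with a difference between the poles of -2.03. Among the other named calcium genes, Stc1 had 2.50 and -3.80 (6.31 between the poles), Calcrl had -2.99 and 0.55 (-3.53 between the poles), and Itpr2 had -0.77 and 0.35 (-1.11 between the poles). Each pole is 1 library and both are set against the same day 4 evening library, so none of these differences was tested.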

How the results depend on the processing

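Of the 50 log2 differences of the 10 genes, DESeq2 size factors moved 4 beyond the counting interval, a prior count of 0.5 moved 0, and both kept all 25 calls. Library totals moved 20 and kept 22 calls, with 3 gained and 49 signs kept. Totals without Rn45s and Lars2, chosen after seeing the data, moved 19 and also kept 22 calls. The largest moves by scaling were those of S100g between the poles. Of the 50 levels, 8 moved with DESeq2 size factors, 24 with library totals and 38 with totals without Rn45s and Lars2. The cause was not tested.

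Library totals gave 538 genes higher on day 4 morning against day 3 morning. Totals without Rn45s and Lars2 changed the split to 773 higher and 1877 lower there, and to 1367 and 2788 between the poles.

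Without a filter more genes were tested. On day 4 morning against day 3 morning 1686 were then higher and 2682 lower, on day 4 evening against that morning 1932 and 1653, and at the M pole 2526 and 2623. For the AM pole 4029 were higher and 3771 lower than on day 4 evening, and 3110 higher and 2745 lower than at the M pole. With a mean of at least 5 CPM fewer were tested. Then 566 were higher and 872 lower on day 4 morning, 550 and 465 on day 4 evening, and 1172 and 1264 at the AM pole against the M pole.

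A fold of 4 called 2, 1, 3 and 4 of the 10 genes in the first 4 comparisons. It called 154 genes higher and 531 lower on day 4 morning, 308 and 180 on day 4 evening, 571 and 583 at the M pole, 1152 and 1120 at the AM pole against day 4 evening, and 757 and 641 between the poles. Intervals wholly past 2-fold, also chosen after seeing the data, called 3 of the 10 genes on day 4 morning. They called 457 genes higher and 904 lower there, 499 and 401 on day 4 evening, 1070 and 1107 at the M pole, 1927 and 1898 at the AM pole against day 4 evening, and 1347 and 1171 at the AM pole against the M pole. With TMM and a 2-fold difference, more genes were lower than higher at the AM pole in both comparisons. No filter, a fold of 4, such intervals and DESeq2 size factors (2592 higher and 2508 lower than on day 4 evening, 1823 and 1788 against the M pole) had more higher. At the M pole no filter, a fold of 4 and such intervals had more lower, against 1669 higher and 1639 lower.

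No paired analysis was possible because each group had 1 library.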
